A study of Mus musculus with 24 samples.

Results

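Hippocampal RNA was compared between Nanoligomer-treated and untreated rTg4510 mice, the tauopathy model of the study, in 7 of the 23 distinct libraries of the series. Members were taken by group label, with earlier results of these data known. They were 4 libraries of the rTg4510-Nano group (replicates F1, F2, M2 and M3) and 3 of the rTg4510 group (F1, F3 and M2). The table lists a further rTg4510 replicate, M3, whose column equals that of M2 for every gene, so this pair was counted as 1 library. All mice of both groups carried the rTg4510 genotype on a C57/B6 background, were 3 months old (their age at purchase in the methods plus the 1-month course), and the letters F and M in the replicate names give their sex. By the methods, treated mice received 150 mg/kg Nanoligomer 3 times per week for 1 month, and the untreated mice are labelled as controls. Littermate controls (LM, 4 libraries, 3 months old, untreated) are given beside them as a level in mice without the model. Although their genotype tag also reads rTg4510, they were grouped by description and treatment tag, where they appear as littermates. Nothing in the labels says that libraries come from separate animals, so p-values measure the spread between these libraries.

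Nanoligomers are antisense peptide nucleic acids on a gold nanoparticle, and the mixture given here was directed at NF-κB and NLRP3. NF-κB is a family of transcription factors that switches on inflammatory genes, and NLRP3 is the sensor of an inflammasome, the complex that activates caspase-1 and releases interleukin-1β. In rTg4510 mice a Camk2a-driven transactivator turns on a human tau carrying a dementia mutation in forebrain neurons, from a cassette that also carries mouse Prnp sequence, so that Prnp reads follow the transgene. The choroid plexus is the secretory epithelium inside the brain ventricles that makes cerebrospinal fluid. It borders the hippocampus in the lateral ventricle, and its transcripts, led by transthyretin, are nearly absent from hippocampal neurons and glia.

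The 7 libraries held 19660389 to 26014106 counts assigned to genes. Hippocampal markers were present in all of them. The summed level of 11 markers of CA pyramidal cells was 1110 to 1800 CPM (counts scaled to a common library total, with TMM factors) in untreated, 647 to 1720 CPM in treated and 1250 to 2010 CPM in LM libraries, and the lowest was rTg4510-Nano M2. That library also held transcripts of other regions. Avp, the hypothalamic hormone vasopressin, was at 86.9 CPM in it and at 0.153 to 1.41 CPM in the other 6 libraries. Oxt, which encodes oxytocin, was at 58.6 CPM in it against 0 to 0.364 CPM. In rTg4510-Nano M3, Gh, the growth hormone of the pituitary, reached 1350 CPM against 1.52 to 33.4 CPM. Xist, expressed from the inactive X chromosome of females, was at 25.0 CPM in the male library rTg4510 M2 and at 0.56 and 0.54 CPM in the treated males. The main counts of calls were therefore also made without rTg4510-Nano M2 and M3, a choice made after the data were seen. Markers of liver were nearly absent, with 13 hepatocyte genes summing to 0.838 to 2.15 CPM in untreated and 0.819 to 2.46 CPM in treated libraries.

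The transgene was compared first, since it checks the genotype. Prnp was at 3070, 2270 and 3300 CPM in rTg4510 F1, F3 and M2, and at 4050, 2840, 1150 and 2450 CPM in rTg4510-Nano F1, F2, M2 and M3. Every one of the 7 libraries was above the 894 to 963 CPM of the LM libraries, which is what the genotype calls for, and the treated and untreated groups overlapped. Its log2 fold change with treatment was -0.14 (SE, the standard error, 0.38, edgeR adjusted p = 0.995). Camk2a, whose promoter drives the transactivator, was at 963 CPM in rTg4510-Nano M2 and at 3920 to 6470 CPM in the other 6 libraries, so Prnp and Camk2a were lowest in the same library. Mapt, the gene of mouse tau, was at 608 ± 50.3 CPM (SD, n = 3) without and 638 ± 24.8 CPM (SD, n = 4) with treatment. Of 6 genes at the transgene insertion sites, Esyt2 was also as the genotype calls for, at 28.8 to 31.7 CPM in untreated, 25.2 to 34.7 CPM in treated and 55.7 to 63.4 CPM in LM libraries. The 6 summed to 271 to 393 CPM in untreated, 312 to 361 CPM in treated and 538 to 588 CPM in LM libraries. Their mean log2 CPM overlapped, at 4.30 in rTg4510-Nano M3 and 4.25 in LM M2.

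**Figure D1:**
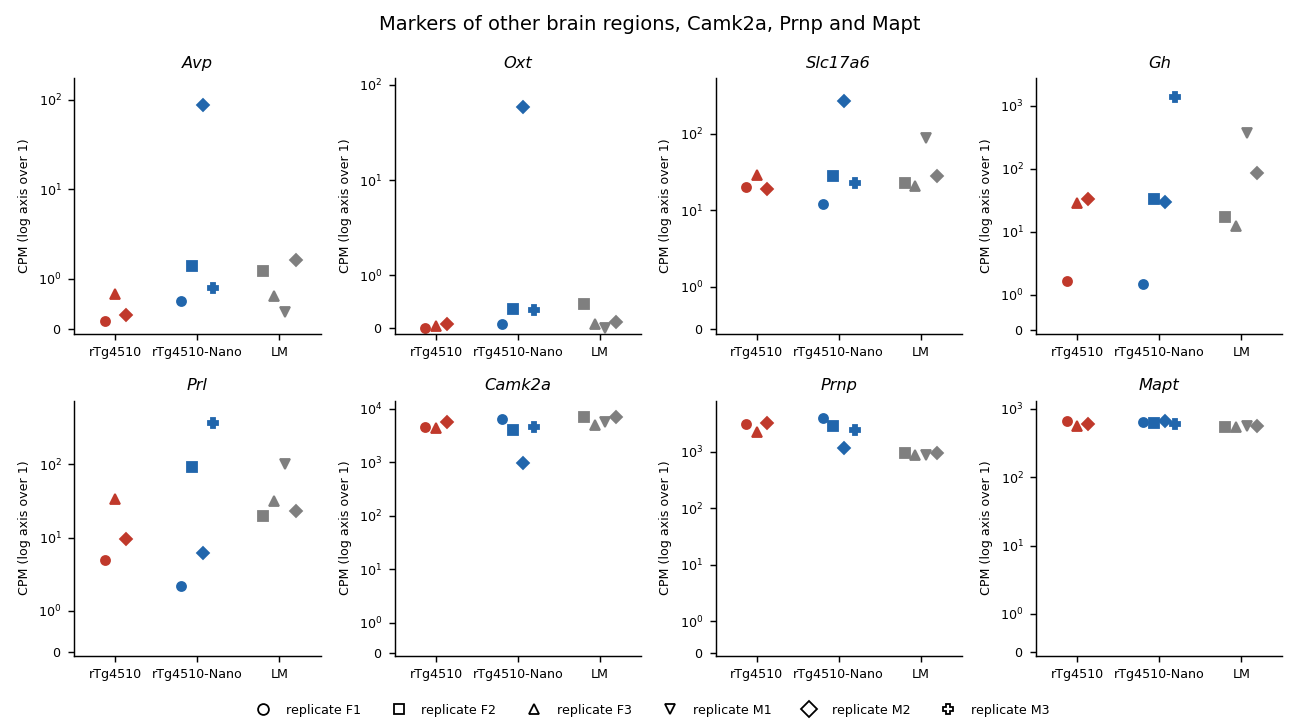
Level of 8 genes in each library, in CPM on an axis that is linear below 1 and logarithmic above it, for rTg4510 (red), rTg4510-Nano (blue) and LM (grey) libraries, with a marker shape for each replicate name. Avp and Oxt stand out in rTg4510-Nano M2 (86.9 and 58.6 CPM) and Gh in rTg4510-Nano M3 (1350 CPM), and Camk2a is lowest in rTg4510-Nano M2 (963 CPM).

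Treated rTg4510 mice had far lower levels of choroid plexus transcripts than untreated ones. The number of transcripts past a threshold, of choroid plexus or not, depended on the tool. Ttr, the thyroxine and retinol carrier that choroid plexus secretes, was at 4070, 17200 and 5990 CPM in rTg4510 F1, F3 and M2. It was at 10.4, 25.4, 14.3 and 62.8 CPM in rTg4510-Nano F1, F2, M2 and M3, and at 25.5, 16.3, 180 and 28.7 CPM in the LM libraries. The groups did not overlap, and the untreated rTg4510 libraries were those that stood apart from both others. Its log2 fold change with treatment was -8.32 (SE 0.92), with an adjusted p of 0.0504 from edgeR, just outside the threshold of 0.05. Tested with edgeR's quasi-likelihood method, 8 of 15358 genes (0.0521%) passed the threshold as lower and 0 (0%) as higher, with 845 genes at an unadjusted p under 0.05, of which 671 were lower and 174 higher. The median log2 fold change over all tested genes was -0.0018. DESeq2, the tool named in the study's methods, called 215 genes lower (1.41% of 15296) and 10 higher (0.0654%). With the LM libraries in the same edgeR fit, 94 genes were lower (0.613% of 15323) and 2 higher (0.0131%). Without rTg4510-Nano M2 and M3, edgeR called no gene, with or without the LM libraries, and DESeq2 called 214 lower and 15 higher. Leaving out rTg4510 M2 or any single treated library also left no call in edgeR, as did sex as a covariate, in groups that hold both sexes.

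A list of 30 transcripts of choroid plexus epithelium was chosen with earlier results of these data known. All 30 were tested and had a negative log2 fold change, from -8.32 for Ttr to -1.16 for Slc29a4. Of these, 6 were lower in edgeR, 24 in DESeq2 and 19 with the LM libraries in the fit. In 29 of the 30, every treated library was below every untreated one, against 4.48% of all tested genes, and the exception was Car14. The list had a median log2 fold change of -4.46 (-5.36 without rTg4510-Nano M2 and M3). Its members made up 0.535%, 2.19% and 0.752% of the counts in rTg4510 F1, F3 and M2, 0.0188% to 0.0292% in the treated and 0.0167% to 0.0403% in the LM libraries. Fewer choroid plexus cells in a sample and less RNA per such cell cannot be told apart in bulk RNA.

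**Figure D2:**
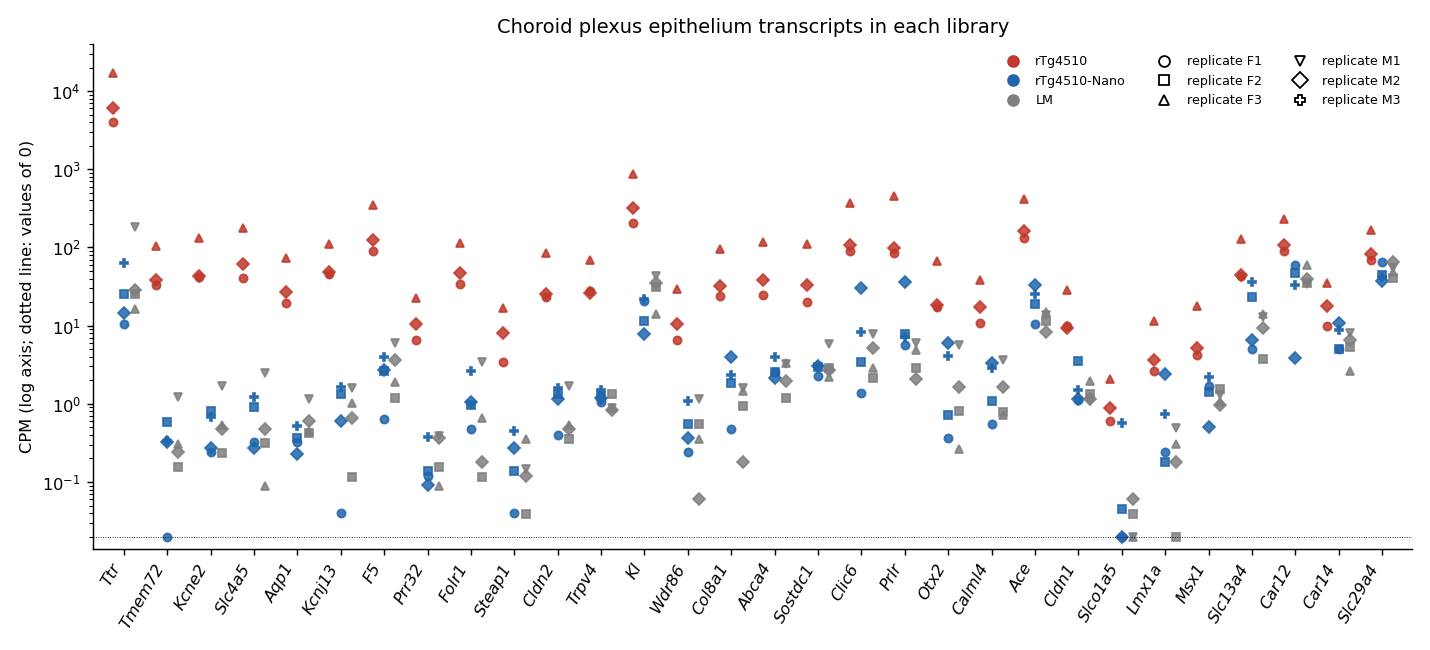
Level of the 30 choroid plexus epithelium transcripts in each library, in CPM on a log axis, ordered by log2 fold change; red, blue and grey points are rTg4510, rTg4510-Nano and LM libraries and the dotted line holds values of 0. Untreated libraries lie above LM libraries for all 30 transcripts and above treated libraries for 29 of the 30, and rTg4510 F3 is the highest point in each column.

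Of the 6 choroid plexus transcripts past the edgeR threshold, 4 encode channels or transporters. Kcne2, a potassium channel subunit (chromosome 16, 92292389 to 92298129), was at 42.1, 132 and 42.8 CPM in rTg4510 F1, F3 and M2 and at 0.24, 0.819, 0.276 and 0.672 CPM in rTg4510-Nano F1, F2, M2 and M3. This was a log2 fold change of -7.14 (SE 0.62, edgeR adjusted p = 0.0236). Aqp1, the water channel of the apical membrane (chromosome 6, 55336432 to 55348555), was at 19.3, 73.0 and 27.1 CPM without and 0.32, 0.364, 0.23 and 0.522 CPM with treatment. It fell by 6.74 on the log2 scale (SE 0.57, edgeR adjusted p = 0.0236). Slc4a5, a sodium bicarbonate cotransporter (chromosome 6, 83219828 to 83304945), fell by 7.06 (SE 0.72, edgeR adjusted p = 0.0423). Its levels of 40.9, 179 and 61.4 CPM in untreated libraries compared with 0.276 to 1.23 CPM in treated ones. Trpv4, a calcium-permeable channel (chromosome 5, 114622152 to 114658421), was at 27.8, 68.9 and 26.3 CPM against 1.04 to 1.49 CPM, a log2 fold change of -5.02 (SE 0.40, edgeR adjusted p = 0.0236). Tmem72, a membrane protein (chromosome 6, 116679063 to 116716913), and Prr32 (chromosome X, 45090904 to 45092791) completed the 6, at log2 fold changes of -7.55 (SE 0.75) and -6.11 (SE 0.61), each with an adjusted p of 0.0410 from edgeR. All 6 were higher in every untreated library than in any treated or LM library.

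Other members differed by similar amounts and missed the edgeR threshold. Among carriers and enzymes, Kl, the co-receptor of FGF23 known as klotho, was at 208, 868 and 323 CPM without and 7.87 to 21.8 CPM with treatment (adjusted p = 0.0518 from edgeR), and Folr1, which carries folate into cerebrospinal fluid, at 33.9, 113 and 47.7 CPM against 0.479 to 2.65 CPM (adjusted p = 0.0505). Tight junctions of the epithelium contain claudins, and Cldn2 was at 23, 85.2 and 25.6 CPM against 0.399 to 1.57 CPM (adjusted p = 0.0518 from edgeR). F5, coagulation factor V, was at 89.6, 347 and 126 CPM against 0.639 to 3.99 CPM (adjusted p = 0.0504 from edgeR). Kcnj13, the inward rectifier Kir7.1, had a log2 fold change of -6.22 (SE 0.77) and an adjusted p of 0.0526 from edgeR. Each of these 5 was lower with treatment in DESeq2. Some members were less uniform. Clic6 was at 30.1 CPM and Prlr, the prolactin receptor, at 35.7 CPM in rTg4510-Nano M2, against 1.36 to 8.40 and 5.71 to 7.92 CPM in the other treated libraries. Car14, a carbonic anhydrase, was at 9.88, 34.6 and 17.9 CPM without and 5.07, 5.01, 10.8 and 8.73 CPM with treatment, so its groups overlapped.

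Within the untreated group the levels of these transcripts moved in step. In 28 of the 30 (93.3%) the order of the libraries was F3 above M2 above F1, against 24.5% of all tested genes. Expressed per 1000 counts of Ttr in the same library, Slc4a5 was at 10.1, 10.4 and 10.3, Kl at 51.1, 50.5 and 53.9 and F5 at 22, 20.2 and 21.1 in rTg4510 F1, F3 and M2, although Ttr itself ranged from 4070 to 17200 CPM. Other members were further from a fixed ratio. Kcne2 was at 10.3, 7.66 and 7.16, Trpv4 at 6.83, 4.01 and 4.39 and Slc29a4, a monoamine transporter, at 17, 9.58 and 13.7 per 1000. Of the 215 genes lower in DESeq2, 179 (83.3%) had this order, as did 400 of the 688 genes (58.1%) whose treated libraries all lay below the untreated ones. Of the 386 genes (2.51% of those tested) whose treated libraries all lay above the untreated ones, 45 (11.7%) had it.

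Otx2, the homeodomain factor that choroid plexus needs for its identity, is a member too, at 17.4, 67.7 and 18.6 CPM without and 0.36, 0.728, 5.93 and 4.10 CPM with treatment (log2 fold change -3.61, SE 0.96, edgeR adjusted p = 0.434). The letters TAATCC, the core that OTX factors bind, were searched on both strands in RefSeq promoters (GRCm38.p6, 250 bases before to 50 after each start), because the members moved together. Of the 30 members, 26 matched the table with 34 promoters, and 4 of these (11.8%) held the letters, against 5.66% of promoters of all tested genes and 7.06% of all promoters. A match is a description of the sequence and not of a site in use. The 4 promoters are shown 5′ to 3′ on the strand of the gene, in lower case with the match in capitals, which reads TAATCC or its reverse complement GGATTA.
Abca4 (chr3:122044210-122044509, plus strand): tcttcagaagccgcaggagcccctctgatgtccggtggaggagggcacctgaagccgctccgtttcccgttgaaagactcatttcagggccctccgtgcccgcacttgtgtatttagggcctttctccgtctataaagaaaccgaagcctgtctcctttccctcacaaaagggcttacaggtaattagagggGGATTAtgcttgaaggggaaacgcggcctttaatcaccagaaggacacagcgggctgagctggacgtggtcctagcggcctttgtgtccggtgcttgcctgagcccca
Ace (chr11:105967698-105967997, plus strand): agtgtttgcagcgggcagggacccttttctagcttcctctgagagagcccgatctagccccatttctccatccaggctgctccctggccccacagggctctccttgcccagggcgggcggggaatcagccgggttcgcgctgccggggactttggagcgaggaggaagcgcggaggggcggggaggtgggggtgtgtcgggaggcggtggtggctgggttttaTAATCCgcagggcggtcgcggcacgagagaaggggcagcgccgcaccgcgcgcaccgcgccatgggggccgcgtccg
Otx2 (chr14:48665060-48665359, minus strand): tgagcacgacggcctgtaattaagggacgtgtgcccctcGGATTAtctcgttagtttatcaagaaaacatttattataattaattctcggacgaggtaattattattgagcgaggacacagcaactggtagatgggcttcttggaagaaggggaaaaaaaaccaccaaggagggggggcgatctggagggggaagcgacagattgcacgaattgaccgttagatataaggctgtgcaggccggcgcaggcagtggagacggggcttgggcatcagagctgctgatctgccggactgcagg
Car14 (chr3:95904636-95904935, minus strand): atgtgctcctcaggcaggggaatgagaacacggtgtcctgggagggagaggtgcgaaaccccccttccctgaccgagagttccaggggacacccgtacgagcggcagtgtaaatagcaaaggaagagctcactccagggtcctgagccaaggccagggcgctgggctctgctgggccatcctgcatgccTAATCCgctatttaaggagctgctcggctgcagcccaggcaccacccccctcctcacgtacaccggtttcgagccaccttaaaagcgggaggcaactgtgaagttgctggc
Abca4, a retinoid transporter, was at 24.5, 116 and 37.8 CPM without and 2.16 to 3.96 CPM with treatment, and Ace, angiotensin-converting enzyme, at 132, 412 and 164 CPM against 10.5 to 32.8 CPM. Car14, with the same letters, overlapped between the groups.

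The genes lower in edgeR outside the choroid plexus list were Ackr4 and Fap. Ackr4, an atypical receptor that removes chemokines (chromosome 9, 104084157 to 104126933), was at 7.25, 6.70 and 4.10 CPM in rTg4510 F1, F3 and M2 and at 0.12, 0.228, 0.276 and 0.336 CPM in the treated libraries. It fell, with a log2 fold change of -4.61 (SE 0.39, edgeR adjusted p = 0.0236). Unlike the choroid plexus members it was highest in F1, and per 1000 counts of Ttr it was at 1.78, 0.39 and 0.685. Fap, a serine protease of activated fibroblasts (chromosome 2, 62500943 to 62574075), was at 4.54, 13.1 and 4.94 CPM against 0.138 to 0.41 CPM, a log2 fold change of -4.86 (SE 0.53, edgeR adjusted p = 0.0493). LM libraries held 0 to 0.234 CPM of Ackr4 and 0.624 to 1.07 CPM of Fap. Enpp2, which encodes autotaxin, the enzyme that makes lysophosphatidic acid, was on no list and abundant, at 2130, 8190 and 2890 CPM without and 135, 148, 252 and 236 CPM with treatment. The estimate was a log2 fold change of -4.49 (SE 0.53, edgeR adjusted p = 0.0518), and its ratio per 1000 counts of Ttr was 524, 477 and 483.

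**Figure D3:**
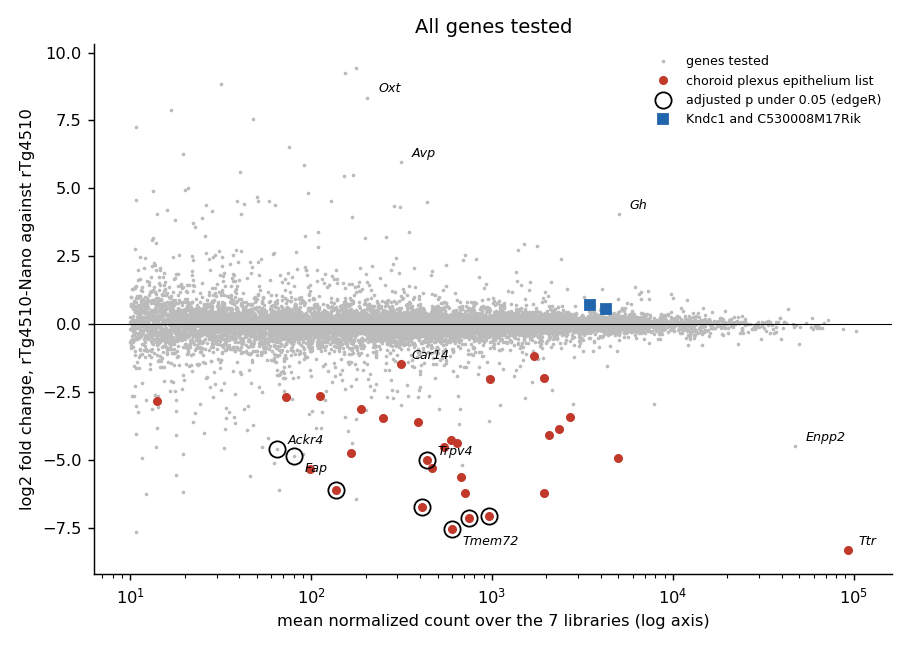
Log2 fold change of rTg4510-Nano against rTg4510 mice for the 15358 genes tested, against the mean normalized count over the 7 libraries on a log axis. Red points are the 30 choroid plexus epithelium transcripts, all below 0, rings mark the 8 genes lower in edgeR, and blue squares mark Kndc1 and C530008M17Rik.

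With choroid plexus transcripts set apart, no gene was past the edgeR threshold in either direction. The set held the 30 members and 16 further genes whose log2 CPM followed the mean of the list with a correlation over 0.8 across the 16 libraries outside this comparison. Of the remaining 15311 genes, none was lower and none higher, the smallest adjusted p was 0.0643 and 818 had an unadjusted p under 0.05. DESeq2 called 180 lower and 8 higher among them, and edgeR 61 lower and 2 higher with the LM libraries in the fit. The text names the 12 genes with the smallest p in each direction that had a mean count of at least 50 and no overlap between the groups. Beside Ackr4, Fap and Enpp2, the lower ones included Ltc4s, the synthase of leukotriene C4, at 10.6, 28.2 and 12.7 CPM without and 1.43 to 2.16 CPM with treatment (log2 fold change -3.15, SE 0.36). They also included genes of extracellular matrix and adhesion. Col9a3, a collagen chain, was at 52.7, 158 and 67.1 CPM against 9.06 to 14.1 CPM, Col4a4, of the type IV collagen of basement membranes, at 6.79, 29.9 and 9.84 CPM against 0.598 to 0.839 CPM, and Frem1 at 18.0, 45.2 and 20.3 CPM against 3.13 to 5.31 CPM. Cdh3, which encodes P-cadherin, was at 8.58, 32.4 and 10.6 CPM against 0 to 0.501 CPM. Of these 12 lower genes, which also held Oca2, 1500015O10Rik, Myo5c and Tc2n, 9 had the order F3 above M2 above F1 (75%). Over the 7 libraries, where the group difference itself enters, the log2 CPM of each of the 12 correlated with the mean of the choroid plexus list at 0.95 or more, and over the 16 other libraries at -0.32 to 0.64. Members of the list itself ranged widely over those 16 libraries, with Slc4a5 at 0.92, Kcne2 at 0.49 and Aqp1 at 0.0021. A low correlation there therefore cannot place a gene outside choroid plexus, and the rule of 0.8 could miss transcripts of this tissue among the remaining genes. All 215 genes lower in DESeq2 and all 94 lower with the LM libraries had a correlation over 0.8 across the 7 libraries, as did 675 of all tested genes. The part that choroid plexus tissue has in these genes was not tested.

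Some lower genes without overlap had a correlation with the mean of the choroid plexus list not over 0.8 across the 7 libraries. The 3 given here also lacked the order F3 above M2 above F1, and they are named after their values were seen. Otud1, a deubiquitinase, was at 30.4, 24.1 and 22.6 CPM without and 15.8, 20.1, 15.3 and 15 CPM with treatment, a log2 fold change of -0.64 (SE 0.16, edgeR adjusted p = 0.380). Lrrk2, a kinase mutated in familial Parkinson's disease, was at 49.1, 53.4 and 42.9 CPM against 36.3, 37.7, 24.1 and 29.9 CPM (log2 fold change -0.60, SE 0.16, adjusted p = 0.434). Wfs1, a protein of the endoplasmic reticulum, was at 254, 175 and 225 CPM against 119, 167, 113 and 90.5 CPM (log2 fold change -0.83, SE 0.23, adjusted p = 0.452). In these 3 the groups were apart by little, and edgeR and DESeq2 both left them outside the threshold.

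Fewer genes were higher than lower in DESeq2 and with the LM libraries. Kndc1, a guanine nucleotide exchange factor of neurons (chromosome 7, 139894696 to 139941537), was at 132, 135 and 153 CPM in rTg4510 F1, F3 and M2, at 209, 217, 191 and 212 CPM in rTg4510-Nano F1, F2, M2 and M3, and at 135 to 162 CPM in the LM libraries. The treated libraries lay above both other groups. Its log2 fold change was 0.57 (SE 0.09, edgeR adjusted p = 0.114), the smallest adjusted p of any higher gene, while it was past the threshold in DESeq2 (adjusted p = 5.88e-07) and with the LM libraries in the edgeR fit (adjusted p = 0.0178). C530008M17Rik (chromosome 5, 76656512 to 76873554) was at 92.9, 108 and 121 CPM without, 161, 167, 201 and 164 CPM with treatment and 116 to 151 CPM in LM libraries. Its log2 fold change was 0.70 (SE 0.14), with an adjusted p of 0.204 from edgeR, 5.17e-04 from DESeq2 and 0.0328 with the LM libraries in the edgeR fit. Both kept a positive log2 fold change in every alternative, at 0.51 to 0.64 and 0.61 to 0.79.

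Of the remaining 10 of the 12 higher genes chosen in the same way, 6 were past the threshold in DESeq2 and none in edgeR. Serpina3h, of a cluster of serine protease inhibitors whose near-identical members can share reads, was at 0.725, 0.920 and 1.01 CPM without and 3.08, 4.51, 1.66 and 3.13 CPM with treatment. Nkd2, an inhibitor of Wnt signalling, was at 3.78, 4.55 and 6.66 CPM against 12.4, 12.7, 6.81 and 15.4 CPM. Gjb6, the astrocytic connexin 30, was at 44.0, 42.3 and 42.9 CPM against 52.9, 53.9, 61.6 and 52.5 CPM, a log2 fold change of 0.37 (SE 0.10). Mfng, a glycosyltransferase that acts on Notch, was at 1.62 to 2.87 CPM against 3.96 to 5.11 CPM. In Scn7a and Stk32b the highest library was rTg4510-Nano M2, at 10.2 and 17 CPM. Entpd6, Efr3b, Zfp667 and Cib2 had log2 fold changes of 0.41 to 0.58 and were outside the threshold in both tools. Sytl4, also higher in DESeq2 and named after its values were seen, had its highest level in rTg4510-Nano M2, at 41.4 CPM against 2.64 to 6.64 CPM in the other treated libraries.

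**Figure D4:**
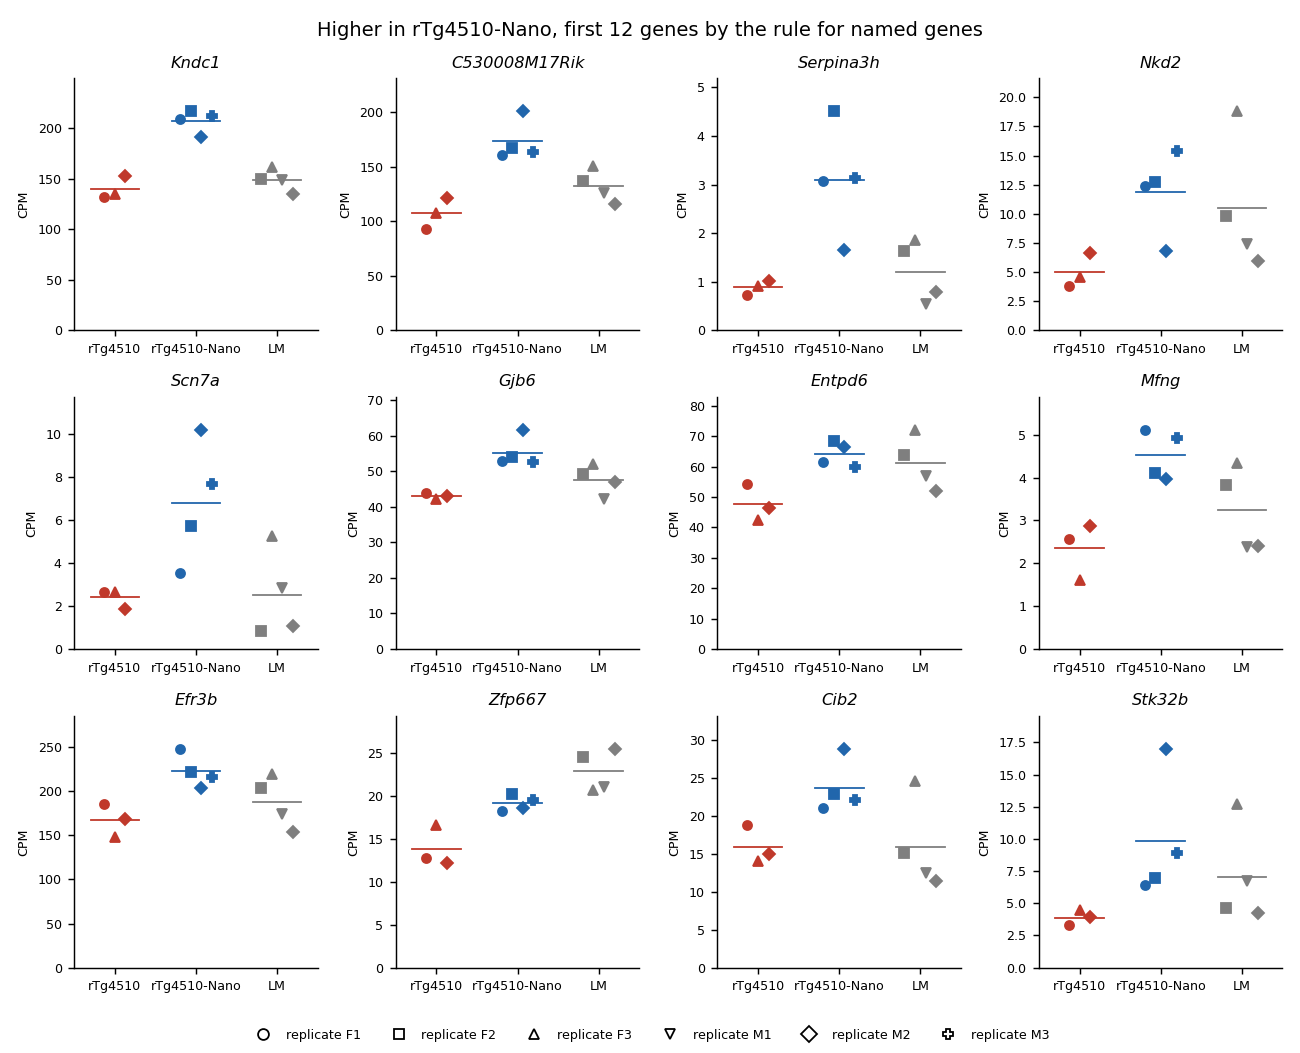
Level in CPM of the 12 higher genes with the smallest p and no overlap between the groups, in rTg4510 (red), rTg4510-Nano (blue) and LM (grey) libraries, with a marker shape for each replicate name and a line at the group mean; each axis starts at 0. Treated libraries lie above untreated ones in all 12, which the choice of genes required, and Kndc1 (191 to 217 CPM) and C530008M17Rik (161 to 201 CPM) also lie above the LM libraries.

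No difference was detected in the RNA of the genes that the Nanoligomers target. Nfkb1, which encodes the p105 and p50 subunits, was at 14.3, 25.7 and 22.7 CPM without and 21.9, 17.7, 21.7 and 19.8 CPM with treatment, a log2 fold change of -0.04 (SE 0.20, edgeR adjusted p = 0.995). Rela, the p65 subunit, was at 23.5, 33.9 and 28.3 CPM against 25.2, 24.2, 30.3 and 29.5 CPM (-0.05, SE 0.15). Nlrp3 was low in all libraries, at 2.10, 0.963 and 1.32 CPM against 1.68, 1.41, 1.24 and 1.53 CPM (0.00, SE 0.34). In each the groups overlapped, and the sign of the change turned under some alternatives. Of 20 NF-κB subunits and regulators, none passed the threshold in either direction, with a median log2 fold change of -0.0366. Of 17 tested NF-κB target genes none did either (median 0.0762), and of 11 tested NLRP3 inflammasome genes none did (median -0.112).

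The member with the smallest p was Il1r1 on the inflammasome list and Vcam1 among the target genes. Il1r1, the receptor of interleukin-1, was at 9.20, 21.6 and 11.7 CPM without and 7.95, 4.78, 4.83 and 6.98 CPM with treatment, a log2 fold change of -1.20 (SE 0.32, edgeR adjusted p = 0.437). LM libraries held 7.45 to 25.2 CPM of it, a wider range than either rTg4510 group. Vcam1, an adhesion molecule that NF-κB induces, was at 39.0, 59.9 and 39.1 CPM against 26.8 to 34.1 CPM (log2 fold change -0.60, SE 0.18, adjusted p = 0.497). In both Il1r1 and Vcam1 the untreated libraries had the order F3 above M2 above F1. Il17re, a receptor subunit of the interleukin-17 family that the study names, was at 1.18, 7.18 and 1.81 CPM without and 0.32, 0.228, 0.046 and 0.448 CPM with treatment, and at 0 to 0.754 CPM in LM libraries. The log2 fold change of Il17re was -3.64 (SE 0.81), with an adjusted p of 0.292 from edgeR and 0.00160 from DESeq2, and its libraries had the order of the choroid plexus transcripts. Of the other genes named by the study, Cd68, a lysosomal protein of microglia, was at 10.5 to 18.8 CPM against 6.67 to 17 CPM (log2 fold change -0.27, SE 0.35), and Gfap, the astrocyte filament, at 321, 882 and 1090 CPM against 303 to 960 CPM (-0.34, SE 0.48). Bdnf, a neuronal growth factor, was at 23.3 to 44.7 CPM against 12.5 to 65.3 CPM (0.06, SE 0.49), and Aif1, of microglia, at 5.17 to 7.75 CPM against 2.67 to 8.38 CPM (-0.22, SE 0.36). For each of these 4 the groups overlapped. S100a8 and Ido1 were under 1 CPM in every library and were not tested.

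Most lysosomal genes had small negative log2 fold changes, and few passed a threshold. Of 36 tested, 33 had a negative log2 fold change, against 7740 of 15358 over all genes, and the median was -0.195, or -0.149 without rTg4510-Nano M2. None passed the edgeR threshold, and 10 had an unadjusted p under 0.05, all lower, against 671 lower of 15358 over all genes. In 7 of the 36 every treated library was below every untreated one (4.48% over all genes), and DESeq2 called 3 lower (1.41% over all genes). Ctsd, the aspartyl protease cathepsin D (chromosome 7, 142375911 to 142388038), was at 525, 792 and 674 CPM in rTg4510 F1, F3 and M2 and at 475, 396, 340 and 343 CPM in rTg4510-Nano F1, F2, M2 and M3. The groups were apart, and the LM libraries were lower still, at 279 to 322 CPM. Ctsd had a log2 fold change of -0.77 (SE 0.17, edgeR adjusted p = 0.299 and 0.0120 from DESeq2). Ctsa, a carboxypeptidase, was at 109, 134 and 114 CPM against 86.2 to 90.8 CPM (-0.42, SE 0.09, edgeR adjusted p = 0.290 and 0.0453 with the LM libraries in the fit). Tpp1, a peptidase, was at 94.6, 126 and 95.8 CPM against 70.5 to 80.3 CPM, and Lamp2, of the lysosomal membrane, at 95.1, 169 and 121 CPM against 73.7 to 83.8 CPM. Npc2, which binds cholesterol, was at 66.7, 109 and 86.4 CPM against 53.6 to 61.5 CPM. In 19 of the 36 (52.8%) the untreated libraries had the order F3 above M2 above F1. Ctsd was at 129, 46.1 and 113 per 1000 counts of Ttr in rTg4510 F1, F3 and M2. This ratio cannot decide the source, since Ctsd was also at 279 to 322 CPM in LM libraries, which held little Ttr. The part of the choroid plexus in the lysosomal difference was not tested.

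Microglial and complement lists also had negative medians, which were nearer to 0 without rTg4510-Nano M2. All 17 genes of homeostatic microglia had a negative log2 fold change (median -0.26), none passed the threshold, and the median was -0.113 without rTg4510-Nano M2, in which the list had its lowest sum, against 572 to 640 CPM in the other treated libraries. Cd33, an inhibitory receptor, was the only 1 of the 17 whose groups did not overlap (4.48% over all genes). It was at 5.46, 5.47 and 9.31 CPM against 3.73 to 5.43 CPM, so the groups were barely apart (edgeR adjusted p = 0.951). Of 25 genes of disease-associated microglia, 17 were negative (median -0.14) and Ctsd alone was lower in DESeq2. Of 18 complement genes, 13 were negative (median -0.26, and -0.0777 without rTg4510-Nano M2). Cd55, which shields cells from complement, was at 9.31, 20.3 and 12.3 CPM without and 5.51 to 7.24 CPM with treatment, a log2 fold change of -1.15 (SE 0.26, edgeR adjusted p = 0.3 and 0.0121 from DESeq2). Among 21 interferon-stimulated genes (median 0.0843), Bst2, the antiviral protein tetherin, was at 4.77, 11.1 and 7.94 CPM against 2.53 to 3.05 CPM and at 1.46 to 2.18 CPM in LM libraries. The log2 fold change of Bst2 was -1.46 (SE 0.28), with an adjusted p of 0.184 from edgeR, 0.00101 from DESeq2 and 0.0381 with the LM libraries in the fit, and no other gene of that list was lower or higher in any of the 3 fits. In both Cd55 and Bst2 the untreated libraries had the order of the choroid plexus transcripts, F3 above M2 above F1.

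Of the lists of neighbouring tissue, the 14 genes of choroid plexus stroma and meninges had a median log2 fold change of -0.244. It was -0.0102 without rTg4510-Nano M2 and -0.404 without rTg4510-Nano M2 and M3. Both members past the threshold in DESeq2 and with the LM libraries encode parts of insulin-like growth factor signalling. Igf2 was at 304, 1260 and 422 CPM without and 48.9, 73.4, 47.0 and 171 CPM with treatment (log2 fold change -2.95, SE 0.64, edgeR adjusted p = 0.290), and its ratio per 1000 counts of Ttr was 74.7, 73.3 and 70.4. Igfbp2 was at 157, 378 and 170 CPM against 12.9 to 56.0 CPM (-2.93, SE 0.53, edgeR adjusted p = 0.167). Lum and Ogn, markers of fibroblasts, overlapped between the groups. Of 26 tested genes of motile cilia, which ependyma and choroid plexus carry, 21 were negative, with none past the threshold and none without overlap. Their median was -0.642, or -0.805 without rTg4510-Nano M2 and -1.21 without rTg4510-Nano M2 and M3. Ppp1r1b, the phosphoprotein DARPP-32 on the striatal list, was at 79.4, 127 and 83.1 CPM against 41.8, 29.0, 24.9 and 35.0 CPM, a log2 fold change of -1.56 (SE 0.21), with an adjusted p of 0.0744 from edgeR, 3.02e-07 from DESeq2 and 0.00647 with the LM libraries in the fit. Its untreated libraries also had the order F3 above M2 above F1. The groups overlapped for the other 9 striatal markers, and Drd2 and Tac1 were highest in rTg4510-Nano M2, at 24.1 and 34.3 CPM.

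Several neuronal and housekeeping lists were close to the median of all genes, and others moved with rTg4510-Nano M2. Synaptic vesicle genes (18 tested) had a median log2 fold change of 0.0424, glutamate receptors and scaffolds (21) 0.0494, respiratory chain (19) 0.00823, ribosomal proteins (22) -0.0196 and chaperones (18) 0.0302, with no member past any of the 3 thresholds. In CA pyramidal markers (11 tested, median -0.319) and immediate early genes (24, median -0.249) the medians were 0.0276 and -0.0753 without rTg4510-Nano M2. Dentate granule cell markers (13) had a median of -0.199, or -0.0822 without that library, and interneuron markers (15) 0.166, or 0.21. C1ql2, which granule cells of the dentate gyrus release at mossy fibre synapses, was at 9.20, 19.9 and 18.1 CPM without and 29.7, 25.1, 29.3 and 24.0 CPM with treatment (log2 fold change 0.79, SE 0.26, edgeR adjusted p = 0.637), and at 47.3 to 99.8 CPM in LM libraries. Fgf14, a modulator of sodium channels in which the tau transgene is inserted, was at 15.9 to 20.4 CPM against 21.4 to 31.2 CPM (0.54, SE 0.18, adjusted p = 0.657). Mature oligodendrocyte genes (15) had a median of -0.112, or -0.308 without rTg4510-Nano M2 and -0.595 without rTg4510-Nano M2 and M3. Their sums were 2580 to 9000 CPM in untreated and 3690 to 7450 CPM in treated libraries. Hypothalamic (12) and pituitary markers (7) had medians of 5.92 and 3.20. The hypothalamic sum was 390 CPM in rTg4510-Nano M2 and 1.72 to 21.7 CPM in the other treated and untreated libraries. The pituitary sum was 1820 CPM in rTg4510-Nano M3 and 5.79 to 130 CPM in the others.

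**Figure D5:**
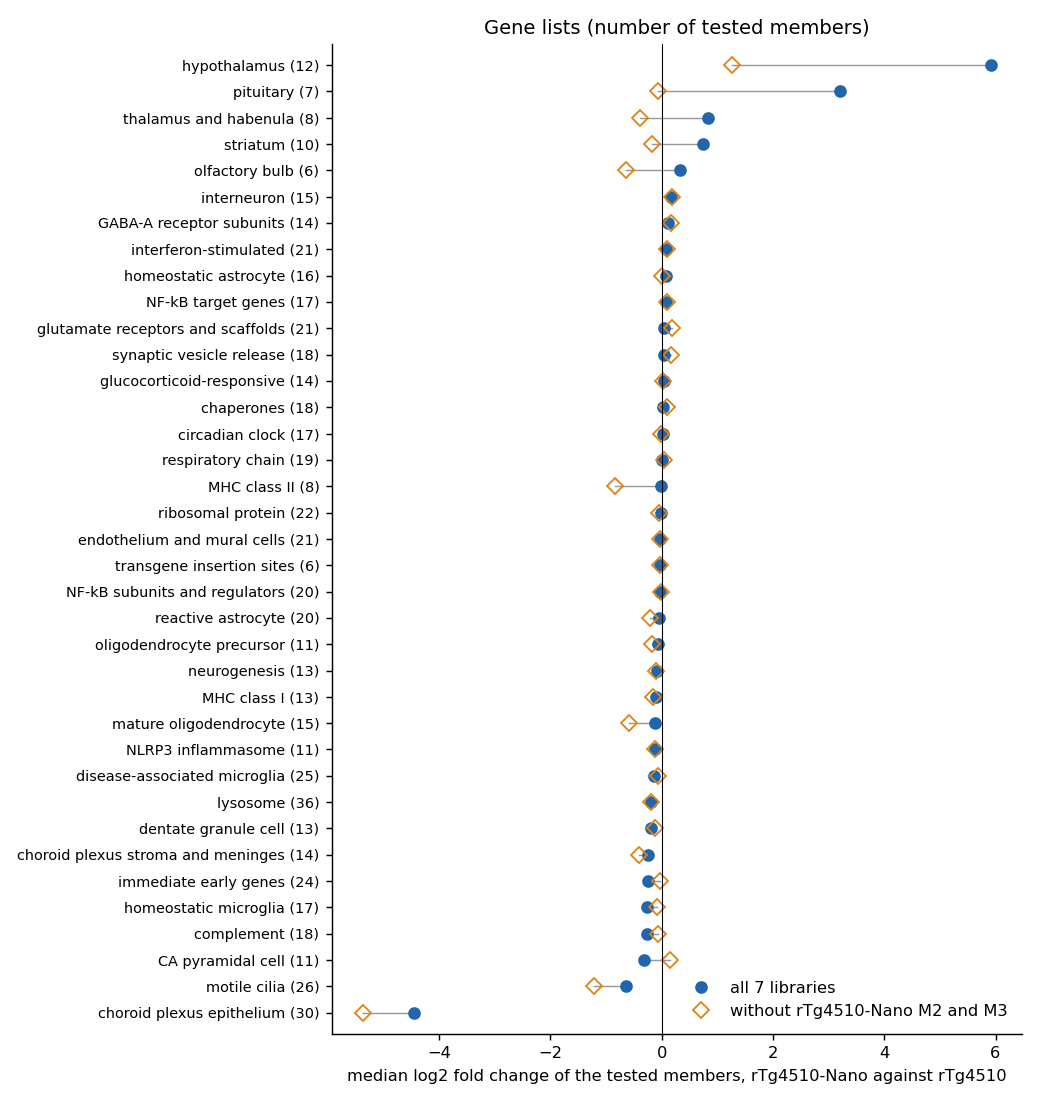
Median log2 fold change of the tested members of each gene list, rTg4510-Nano against rTg4510, with all 7 libraries (filled circles) and without rTg4510-Nano M2 and M3 (open diamonds); the number of tested members is in brackets. Choroid plexus epithelium is the lowest (-4.46), hypothalamus and pituitary are the highest (5.92 and 3.20), and most other lists lie near 0. Bracketed numbers belong to the filled circles. The open diamonds of hypothalamus and pituitary need not cover the same members, since the count filter was applied again without those libraries.

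The treatment was also given to old wildtype C57/B6 mice (20 months by the same reckoning, 4 Old-Nano and 4 Old libraries, same dose and duration), and the difference between the effects was tested as an interaction in edgeR. In 22 of 15385 genes (0.143%) the effect was more negative in rTg4510 mice and in none (0%) more positive, with 605 genes at an unadjusted p under 0.05. Without rTg4510-Nano M2 and M3 the count was 0, and on leaving out single libraries it was 6 (rTg4510-Nano F2) to 51 (rTg4510 F1). Of the 22, 11 were on the choroid plexus list, and in old mice the median treatment effect over the list was 0.0195. For Kcne2 the treatment effect in this fit was -7.13 in rTg4510 and -0.12 (SE 0.72) in old mice, a difference of -7.01 (SE 0.95, edgeR adjusted p = 0.0130). For Enpp2 it was -4.48 and -0.18, a difference of -4.30 (SE 0.57, adjusted p = 0.0123). Kndc1 did not differ between the models past the threshold, at 0.59 in rTg4510 and 0.32 (SE 0.20) in old mice, with a difference of 0.27 (SE 0.29, adjusted p = 1). Ctsd was at -0.75 and 0.16, a difference of -0.90 (SE 0.25, adjusted p = 0.483). The interaction compares the groups as they stand, and the high choroid plexus level of the untreated rTg4510 libraries enters it in full.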

How the data were processed

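The deposited table holds raw counts per gene for 24 libraries, which the authors made from hippocampal RNA-seq reads, using fastp for trimming and STAR for alignment (mm10). For versions, counting tool and strand setting, the sources used here give nothing. A total of 27 gene names had been turned into dates and are not interpreted. Coordinates are those of GRCm38, in which 23306 names were found once. Members and lists were chosen with earlier results of these data known.

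Counts of the 7 libraries were normalized by TMM and tested with edgeR 4.0.16 (R 4.3.3; robust quasi-likelihood fit, Benjamini-Hochberg adjustment, threshold 0.05) for genes whose normalized count averaged at least 10. Standard errors come from the quasi-likelihood F statistic, and log2 CPM used a prior count of 2. The test was also run on simulated counts with known changes, drawn for each gene independently. That run does not cover genes that move together. Alternatives were DESeq2 1.42.0, its size factors, a stricter or no low-count filter, a sex term, a replicate block, other sets of libraries and leaving out each library. Named genes were those past the threshold, the 12 with the smallest p in each direction after choroid plexus transcripts were set apart (mean count of at least 50, no overlap), the transgene, the targets and genes named by the study, choroid plexus members by role and up to 5 members of each other list. Genes named after their values were seen are marked as such. Promoters were those of the 4 choroid plexus members with the smallest p that held the searched letters.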

Additional observations from a re-analysis of the deposited data

Results flagged for a closer look

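In the 4 treated libraries, 1 value stood far from the other 3 by Dixon's criterion (gap over range above 0.829) in 1039 of 15358 genes (6.77%), where chance gives about 1 in 20, and rTg4510-Nano M2 was that library in 68.1% of them. Among named genes this held for Oca2 in rTg4510-Nano M3 (0.373 CPM), Tc2n in rTg4510-Nano F1 (0.28 CPM), C530008M17Rik in rTg4510-Nano M2 (201 CPM) and Gjb6 in rTg4510-Nano M2 (61.6 CPM). For Oca2 and Tc2n the gap was a few reads. Their raw counts in rTg4510-Nano F1, F2, M2 and M3 were 2, 2, 2 and 10 for Oca2 and 7, 4, 4 and 5 for Tc2n.

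The treatment effect differed between rTg4510 and old mice in 22 genes by the interaction term of edgeR, and in 0 without rTg4510-Nano M2 and M3. The differences (rTg4510 minus old, log2) of those already named were -7.01 for Kcne2, -4.80 for Trpv4, -7.34 for Slc4a5, -8.32 for Tmem72 and -6.26 for Prr32 among choroid plexus transcripts. They were -5.15 for Fap, -4.17 for Ackr4, -3.29 for Ltc4s, -4.30 for Enpp2, -5.68 for 1500015O10Rik and -2.81 for Col9a3 outside that list.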

How the results depend on the processing

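The count of 8 lower genes depended on the fit. It was 215 with DESeq2, 19 with no filter on low counts, 94 with the LM libraries, 198 with all distinct libraries, 53 with both identical columns kept, 0 with sex as a covariate and 0 to 21 when single libraries were left out (11 without rTg4510 F1, 21 without F3, 0 without M2 or any treated library). Without rTg4510-Nano M2 and M3 it was 0, with or without the LM libraries, 214 with DESeq2 and 117 with all libraries. All 8 were among the genes lower in the DESeq2, LM, all-library and identical-column fits. The count of 6 choroid plexus transcripts was in the same order 24, 10, 19, 24, 18 and 0, with 0 to 11 on leaving out single libraries and, without rTg4510-Nano M2 and M3, 0 in edgeR, 27 with DESeq2 and 21 with all libraries. Higher genes numbered 10 with DESeq2, 2 with the LM libraries, 3 with all libraries, 1 with both identical columns kept and 15 with DESeq2 without rTg4510-Nano M2 and M3. With choroid plexus transcripts set apart, lower genes numbered 180, 1, 61, 166 and 6 (DESeq2, no filter, LM, all libraries, identical columns) and higher genes 8, 2 and 2 (DESeq2, LM, all libraries). Without rTg4510-Nano M2 and M3 these were 174 lower and 14 higher with DESeq2 and 84 lower with all libraries. The 22 interaction genes became 84 with DESeq2 and 6 to 51 on leaving out single libraries (51 without rTg4510 F1, 6 without rTg4510-Nano F2), and 0 without rTg4510-Nano M2 and M3. The causes were not tested.

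A replicate block on the shared numbers (2 pairs) gave 0 lower genes and 0 choroid plexus calls. The deviations of same-numbered libraries correlated at -0.15 (F1) and -0.25 (M2), and those of differently numbered ones at -0.42 to 0.52. With 2 pairs, these values cannot show whether same-numbered libraries were paired.

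Among named genes, signs turned for at least 8, and none of those given here was past the threshold. Prnp was 0.13 without rTg4510-Nano M2, 0.27 without M2 and M3 (also in DESeq2) and 0.26 with LM or all libraries added to the latter. Nfkb1 was 0.28 and Rela 0.11 with the replicate block, and on leaving out single libraries Nfkb1 ranged from -0.24 to 0.14 and Rela from -0.17 to 0.09. Nlrp3 was 0.01 with DESeq2, its size factors or no filter, 0.03 with sex, 0.02 with LM or all libraries, 0.05 with both identical columns, 0.07 to 0.09 without rTg4510-Nano M2 and M3 (0.08 in DESeq2), and -0.22 to 0.37 on leaving out single libraries. On leaving out single libraries Cd68 ranged from -0.51 to 0.01, Gfap from -0.7 to 0.01, Aif1 from -0.46 to 0.03 and Bdnf from -0.41 to 0.36. Cd68 was 0.16 and 0.15 without rTg4510-Nano M2 and M3, and Aif1 0.19 and 0.18. Bdnf was -0.01 with sex, -0.03 with both identical columns and -0.16 with the replicate block.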
